A study of Mus musculus with 2 samples.

Results

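The macrophages of mouse dorsal root ganglia were 976 of 27777 barcodes, each barcode standing for a cell called in a droplet. A barcode was a member if it held 500 to 10000 unique molecular identifiers (UMIs, counts of distinct RNA molecules) and if C1qa, C1qb, C1qc, Csf1r, Mrc1, Cd68 and Lyz2 together reached at least 4 UMIs and at least 50 per 10000 of its UMIs. The members were thus selected on measured UMIs of these 7 genes, whose levels are given as a description only. The ganglia came from the cervical spine of mice given tamoxifen and 3 days of imiquimod, a skin irritant, and were fixed in 4% paraformaldehyde before the cells were released. Mice of the genotype Foxp3 CreER; Penk fl/WT gave the control library, and those of the genotype Foxp3 CreER; Penk fl/fl gave the library called Treg_Penk_KO, so both carried the tamoxifen-dependent recombinase driven by Foxp3, the gene of the master factor of regulatory T cells, and at least 1 floxed allele of Penk, the enkephalin precursor gene. Each group was 1 library of pooled ganglia, so no test between the genotypes was possible, no p-value is given, and every interval below is an exact 95% interval that covers counting error only. The comparison asked how ganglion macrophages differed when both copies of Penk rather than 1 were floxed in mice with this recombinase.

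Macrophages take up dead cells and debris, present antigen, and release chemokines that call in other leukocytes. In sensory ganglia they lie around the neuron bodies and along vessels and the capsule, and they are known to multiply and to change their secreted signals after nerve injury or peripheral inflammation. The C1q genes encode the starter complex of the classical complement pathway, Csf1r the receptor for the macrophage growth factor, Mrc1 the mannose receptor, Cd68 a lysosomal membrane protein and Lyz2 lysozyme.

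The members were 542 of 15710 control barcodes, 3.45% (3.17 to 3.75), and 434 of 12067 Treg_Penk_KO barcodes, 3.60% (3.27 to 3.94). Of the barcodes inside the UMI window they were 4.76% and 4.71%, and both pairs of shares overlapped in their intervals. Member depth was alike, with a median of 850 UMIs (501 to 5981) in the control and 843 (500 to 6833) in the other library, and 601176 and 514718 UMIs in all. The median member held 14 control and 15 Treg_Penk_KO UMIs of the rule genes. At the edge of the rule, 20 and 17 members held exactly 4 UMIs of these genes and 25 and 29 lay between 50 and 60 per 10000. Just outside, 6 and 3 barcodes held 3 UMIs at a sufficient density, and 40 and 42 held at least 4 UMIs at 40 to 50 per 10000. No barcode above the window passed the other conditions.

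The members did not hold all macrophage RNA of the libraries. Of all UMIs of the 7 rule genes they held 30.3% (control) and 35.0% (Treg_Penk_KO), and 4379 and 3210 other barcodes held at least 1 such UMI. The libraries shared 4723 droplet barcodes, each with its own probe barcode. Of the members, 111 control (20.5%) and 129 Treg_Penk_KO (29.7%) lay in such droplets, and 2 droplets held a member of both libraries. No doublet caller was run.

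Saa3 and 3 chemokine genes are the members' genes that the results below return to, and the 250 bases before their start sites are shown for that reason. Saa3 encodes an acute-phase serum amyloid A made by mouse macrophages and stromal cells, and Ccl12, Ccl4 and Ccl9 encode chemokines. The stretches end at the base before the start of the Ensembl canonical transcript in GENCODE vM39 on GRCm39, the build of the count files, and capitals mark a match to 1 of 3 searched motifs.
Saa3, chr7:46365577-46365826, minus strand: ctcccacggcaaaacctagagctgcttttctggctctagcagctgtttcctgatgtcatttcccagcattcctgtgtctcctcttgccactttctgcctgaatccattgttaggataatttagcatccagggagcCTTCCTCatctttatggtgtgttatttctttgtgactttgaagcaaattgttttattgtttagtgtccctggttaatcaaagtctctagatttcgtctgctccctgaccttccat
Ccl12, chr11:81992395-81992644, plus strand: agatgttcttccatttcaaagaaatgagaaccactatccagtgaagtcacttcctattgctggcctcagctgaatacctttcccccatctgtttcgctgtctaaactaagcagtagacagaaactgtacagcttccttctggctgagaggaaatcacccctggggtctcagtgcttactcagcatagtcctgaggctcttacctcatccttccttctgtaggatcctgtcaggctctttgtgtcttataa
Ccl4, chr11:83553133-83553382, plus strand: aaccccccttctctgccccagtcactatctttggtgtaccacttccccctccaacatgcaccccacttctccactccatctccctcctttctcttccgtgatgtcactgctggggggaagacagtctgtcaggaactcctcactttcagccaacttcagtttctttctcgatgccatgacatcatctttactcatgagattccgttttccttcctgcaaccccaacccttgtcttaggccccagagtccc
Ccl9, chr11:83469468-83469717, minus strand: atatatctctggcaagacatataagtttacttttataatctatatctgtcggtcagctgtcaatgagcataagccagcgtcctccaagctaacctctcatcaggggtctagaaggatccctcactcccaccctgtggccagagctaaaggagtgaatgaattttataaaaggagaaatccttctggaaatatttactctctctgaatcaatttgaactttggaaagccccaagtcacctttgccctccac
The motifs were GAGGAAG for the macrophage factor PU.1, GGGANTTCC for NF-kB and TTGNGNAA for C/EBP, each searched on both strands. Saa3 held 1 match to the PU.1-type motif, on the opposite strand and 109 bases before the start, and no match to the others. Ccl12, Ccl4 and Ccl9 held no match to any of the 3. Of 21770 protein-coding promoters of the same length, 10.3% held the PU.1-type, 1.38% the NF-kB-type and 11.8% the C/EBP-type motif. A match is a description of letters and was not tested as a site.

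The markers supplied for these cells were present at similar levels in both libraries. C1qa stood at 4704 control and 4517 Treg_Penk_KO counts per 1000000 UMIs of the members (CPM), C1qb at 4787 and 4904, C1qc at 2324 and 2291, Csf1r at 953 and 950, and Mrc1 at 885 and 810. Cd68 was at 471 and 528 CPM and Lyz2 at 1146 and 1319. Cx3cr1, another supplied marker, was not analysed here.

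Macrophage genes outside the rule accompanied them. Of the 27 measured genes of a macrophage identity list, all 27 were at least 2 times as high per 1000000 UMIs in members as in the other barcodes of both libraries. The same held for 2346 of all 19059 genes and for 1179 of the 5721 with at least 50 UMIs over the members of both libraries. Of the identity genes, 26 had that many UMIs. The cut was met by all 8 fibroblast markers and by 0 of 11 neuron markers. The cut alone thus does not part macrophage RNA from fibroblast RNA. Adgre1, the gene of the F4/80 antigen, was at 1562 and 1578 CPM and had a UMI in 69.6% (65.5 to 73.4) of control and 72.1% (67.6 to 76.3) of Treg_Penk_KO members. In Schwann cell barcodes, at a median of 1368 and 1343 UMIs, that share was 4.58% in both libraries. These non-members passed the thresholds on myelinating Schwann cell markers and not those on satellite glia, fibroblast, endothelial, mural or red blood cell markers. Neuron markers were not used to leave barcodes out, and Nefl, a neuron marker, was at 3125 and 3481 CPM in them. Ctss, a lysosomal protease of antigen-presenting cells, was at 4047 and 3905 CPM, Fcer1g, the Fc receptor gamma chain, at 2056 and 2256, and Tyrobp, the DAP12 adaptor, at 1482 and 1475. Trem2, a lipid-sensing receptor, was sparse at 14 UMIs in each library.

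Among the genes that the rule did not use, the 20 with the greatest difference in level between members and other barcodes were led by Ms4a14, Evi2, Tlr1, Tlr8 and Tbxas1, the thromboxane synthase gene. Adgre1, for example, was 230 times as high in control and 203 times as high in Treg_Penk_KO members as in the other barcodes. The set also held the endosomal Toll-like receptors Tlr7 and Tlr13, the haemoglobin scavenger receptor Cd163, the complement receptor C3ar1, the chemokine Ccl6, the uridine nucleotide receptor P2ry6 and Saa3. Since the rule genes go with these genes in the same barcodes, the differences describe the members and were not tested.

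**Figure D1:**
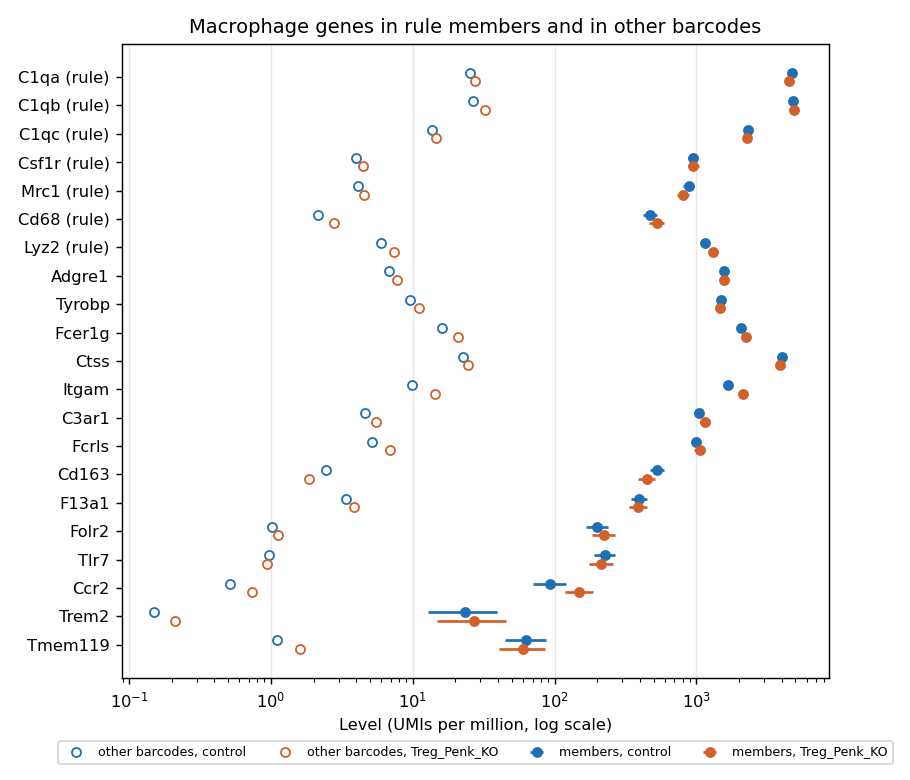
Levels of 21 macrophage genes in UMIs per 1000000 on a log axis, in members (filled, with exact 95% Poisson intervals) and in all other barcodes (open) of the control (blue) and Treg_Penk_KO (orange) libraries. Members lie far to the right of the other barcodes, which for the 7 rule genes follows from the selection. For most genes members of both libraries lie close to each other, for example Adgre1 at 1562 and 1578 CPM. Ccr2, with a ratio of Treg_Penk_KO to control of 1.61, is an exception.

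Members also held RNA of other cell types, which was common in these droplets. Neuron markers summed to 8011 control and 8309 Treg_Penk_KO CPM in members against 20418 and 19892 in the other barcodes, and 59.0% and 51.8% of members also passed the same thresholds on the 11 neuron markers. The thresholds on myelinating Schwann cell markers were passed by 14.0% and 13.8%, and those on fibroblast markers by 7.56% and 8.06%. Fibroblast markers summed to 2289 and 1822 CPM in members against 498 and 672 in the other barcodes. Endothelial markers were at 404 and 274 against 140 and 169, and myelinating Schwann cell markers at 3523 and 4562 against 2500 and 2597. Unlike the neuron markers, these were thus higher in members in both libraries. Mural cell markers were at 210 and 128 against 138 and 176, and red blood cell markers at 143 and 13.6 against 33.9 and 11.9. T and NK cell markers were at 1 and 2 UMIs over all members, with 9 and 8 of 10 markers at 0, and B cell markers at 23 and 33 UMIs, all of them Cd79b. Members that passed no rule of another class numbered 172 and 164.

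Penk, the targeted gene, was nearly absent from the macrophages of both libraries. Members held 2 Penk UMIs in each library, in 2 control members and 1 Treg_Penk_KO member. Penk UMIs in the other barcodes numbered 580 for the control against 2 for Treg_Penk_KO. Foxp3 had a UMI in 0 of 542 and 0 of 434 members. For a count of 0 the exact interval of the share of members with a Foxp3 UMI reaches up to 0.678% and 0.846%. This does not limit the share that express the gene. Outside the members Foxp3 had 10 and 5 UMIs. Of the opioid receptor genes, Oprm1, the mu receptor, was at 78.2 and 115 CPM in members but at 185 and 211 CPM in the other barcodes. Oprd1 had 3 and 0 UMIs, Oprk1 none in either library, and Oprl1 3 and 4.

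Most genes of the macrophages lay within a ratio of 1.5 between the libraries. Of 5721 genes with at least 50 UMIs over the members of both libraries, 195 (3.41%) were at least 1.5 times as high in the Treg_Penk_KO members, and 251 (4.39%) were at or below the inverse of that ratio. These 446 genes are called past the size step, a rule of size and not a test. Low counts filled that set, since 78.9% of it had under 100 UMIs against 49.5% of all 5721 genes. Among the 1179 genes at least 2 times as high in members as in other barcodes of both libraries, 50 (4.24%) were higher and 26 (2.21%) lower past the step. Of the 238 genes with at least 500 UMIs, 4 lay past it: Saa3, Dcn, Fgl2 and Pla2g7, of which Fgl2 and Pla2g7 were named after their values were seen. Fgl2, a fibrinogen-like protein of macrophages, was at 569 and 907 CPM, a ratio of Treg_Penk_KO to control of 1.59 (1.38 to 1.84). Pla2g7, which breaks down platelet-activating factor, was at 825 and 550 CPM, a ratio of 0.666 (0.574 to 0.773).

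**Figure D2:**
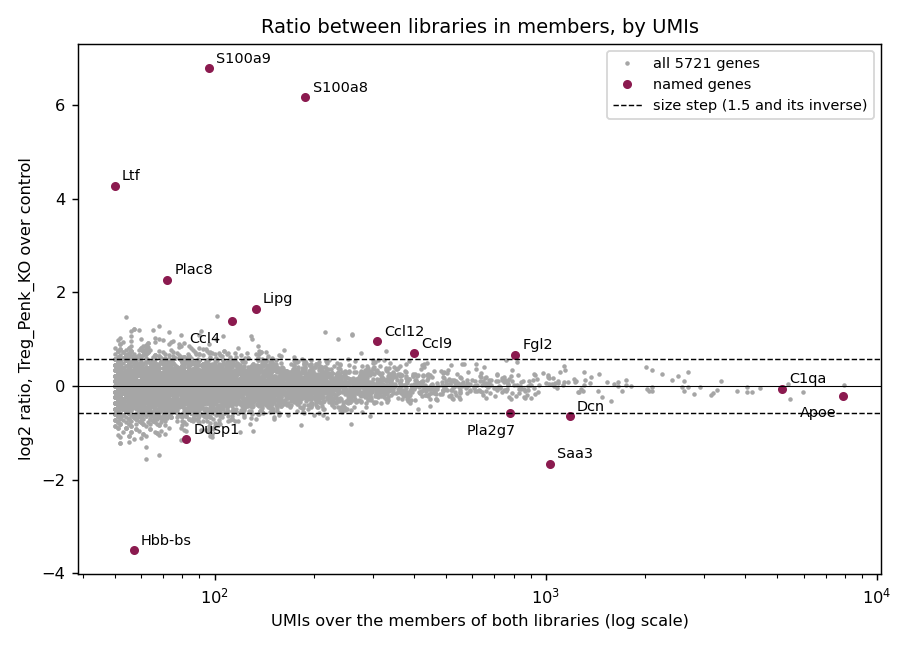
Ratio of Treg_Penk_KO to control members on a log2 axis against the UMIs over the members of both libraries on a log axis, for 5721 genes, with 16 named genes in colour and dashed lines at the size step. The scatter narrows to the right, where Saa3, Dcn, Fgl2 and Pla2g7 lie at or beyond the lines. The Ltf point is a lower bound at a floor of 3 counts.

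Saa3 was the abundant gene that differed most. It stood at 1347 CPM (1256 to 1443) in control and 427 CPM (373 to 488) in Treg_Penk_KO members, from 810 and 220 UMIs. The control level was the higher by 3.15 times, a ratio of 0.317 (0.272 to 0.369). A UMI of Saa3 was found in 83 of 542 control members, 15.3% (12.4 to 18.6), and in 17 of 434 Treg_Penk_KO members, 3.92% (2.298 to 6.198). With every member thinned to 500 UMIs these shares were 12.4% (9.71 to 15.4) and 3.23% (1.77 to 5.35). In Schwann cell barcodes the shares were 3.44% and 1.12%.

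The Saa3 counts were uneven between members. At least 10 UMIs were held by 20 control and 5 Treg_Penk_KO members, and the highest members held 129, 66 and 64 UMIs in the control and 71, 42 and 35 in the other library. Members with any Saa3 had a median of 4 control and 2 Treg_Penk_KO UMIs. Without the member with most Saa3 UMIs in each library the ratio was 0.256. Over all alternatives it ran from 0.182, among members that passed no other marker rule, to 0.415, among members in droplets of 1 library only.

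Saa3 was lower in the Treg_Penk_KO library outside the members as well. The other barcodes held 1613 control and 185 Treg_Penk_KO UMIs, a ratio of 0.190 (0.162 to 0.222), in 691 and 125 barcodes. Fibroblast barcodes, chosen in the same way as the Schwann cell barcodes, held 126 and 22 UMIs, a ratio of 0.196 (0.119 to 0.310). Schwann cell barcodes held 145 and 29, a ratio of 0.286 (0.185 to 0.428). Endothelial barcodes held 8 and 6. The part of free RNA from other cells in the members' level was not tested.

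Among control members, 83 with a Saa3 UMI were set beside 459 without, by genes picked after their values were seen. Msr1, a scavenger receptor, was at 268 CPM with and 84.6 without Saa3, Fn1, the fibronectin gene, at 278 and 90.6, and Lgals3, the galectin-3 gene, at 440 and 179. Igfbp7 and Dcn, which stromal and vessel cells express, were at 651 against 195 and at 1962 against 1121 CPM. In the 17 Treg_Penk_KO members with Saa3, Msr1, Fn1 and Lgals3 were also the higher, at 361 against 79.6, 963 against 241 and 1445 against 323 CPM. Dcn was the higher there too, at 1364 against 786 CPM, while Igfbp7 was at 80.3 against 225 CPM, which rests on 2 UMIs. The part of stromal RNA in these differences was not tested.

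**Figure D3:**
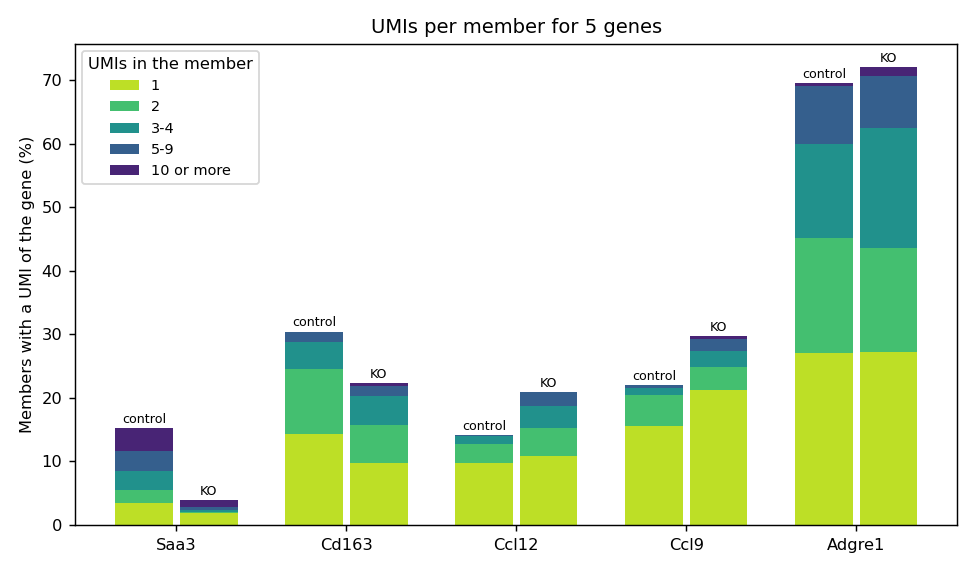
Share of members with a UMI of Saa3, Cd163, Ccl12, Ccl9 and Adgre1, in percent, stacked by the number of UMIs in the member, for control and Treg_Penk_KO (KO) members. Saa3 was found in 15.3% and 3.92% of members and Cd163 in 30.4% and 22.4%, while Ccl12 and Ccl9 were found in more Treg_Penk_KO members.

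Leaving out the marker lists of other cell types, chemokines had the highest median ratio of the lists. Of 10 chemokine genes with enough UMIs, 5 were higher in the Treg_Penk_KO members past the step and 0 lower, beside 3.41% higher and 4.39% lower of all 5721 genes. The median ratio was 1.496 against 0.997 over all 5721 genes. Over the alternatives the median log2 ratio ran from 0.53 to 0.84. The list was chosen with earlier results of these data known and gets no test.

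Ccl4, the MIP-1 beta gene, was at 58.2 control and 152 Treg_Penk_KO CPM, a ratio of 2.60 (1.73 to 4.00). It was found in 19 and 33 members, 3.51% (2.12 to 5.42) and 7.60% (5.29 to 10.5), and no member held more than 9 control or 10 Treg_Penk_KO UMIs. Ccl12, a monocyte attractant that binds Ccr2, was at 193 and 375 CPM, a ratio of 1.94 (1.54 to 2.47), in 77 and 91 members. Ccl9, a ligand of Ccr1, was at 279 and 453 CPM, a ratio of 1.62 (1.32 to 1.99), in 119 and 129 members.

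Each of these chemokines kept its direction past the step under every alternative tried. The ratio ran from 2.39 to 3.20 for Ccl4, from 1.78 to 2.22 for Ccl12 and from 1.51 to 1.79 for Ccl9. Ccl6, at 68.2 and 111 CPM, had a ratio of 1.62 (1.07 to 2.49), but 16 of its 57 Treg_Penk_KO UMIs lay in 1 member and 4 alternatives put it within the step. Ccl2, at 91.5 and 138 CPM, had a ratio of 1.51 (1.05 to 2.19), and 1 alternative put it within the step.

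Other chemokines lay within the step. Ccl7, also a Ccr2 ligand, was at 185 and 274 CPM with a ratio of 1.48 (1.15 to 1.92). Pf4, platelet factor 4, had a ratio of 1.26 (0.935 to 1.70), Ccl5 1.17 (0.813 to 1.68), Ccl3 1.06 (0.669 to 1.67) and Cxcl16 0.989 (0.779 to 1.26). The neutrophil attractants Cxcl1 and Cxcl2 had 0 and 1, and 1 and 0 UMIs.

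The chemokine ratios of the other barcodes were close to those of the members. They were 2.64 for Ccl4, 1.90 for Ccl12, 1.57 for Ccl9, 1.56 for Ccl6 and 1.42 for Ccl2. Fibroblast barcodes held Ccl2 at 40.2 and 140 CPM, a ratio of 3.49 (2.59 to 4.76). Their ratio was 2.22 (1.52 to 3.29) for Ccl9 and 1.51 (1.16 to 1.98) for Ccl7. Ccl12 had 10 and 8 UMIs in them and Ccl4 3 and 5. The part of fibroblast RNA in the members' levels was not tested. In Schwann cell barcodes a Ccl12 UMI was found in 0.736% of control and 2.11% of Treg_Penk_KO barcodes, far below the 14.2% and 21.0% of members. The macrophage identity genes, by comparison, had a median ratio of 1.01 in members and 1.16 in the other barcodes.

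Of the chemokine receptors, Ccr2, carried by monocytes and by macrophages that arise from them, was at 93.2 and 150 CPM, a ratio of 1.61 (1.12 to 2.31), in 31 and 44 members, and lay past the step under every alternative. Ackr1, which is known from vessels and red cells, had a ratio of 0.923.

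**Figure D4:**
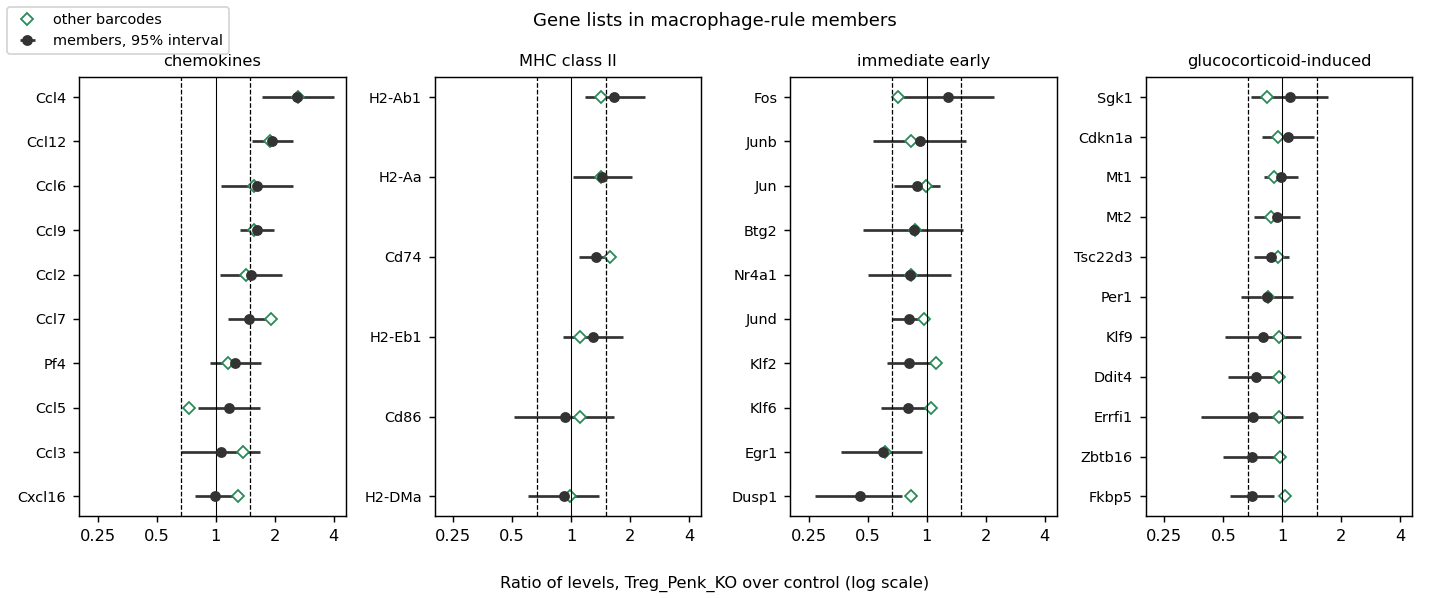
Ratio of Treg_Penk_KO to control levels on a log axis for the genes of 4 lists with at least 50 UMIs, in members (black, with exact 95% intervals) and in all other barcodes (open diamonds), with dashed lines at the size step. Of the chemokines, 5 lie past the upper line, and of the immediate early genes Egr1 and Dusp1 lie past the lower one.

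Genes of class II antigen presentation had ratios above 1 for 4 of 6 members of the list with enough UMIs. Of these, 1 was higher past the step, beside 3.41% of all genes, 0 were lower and the median ratio was 1.31. H2-Ab1 was at 94.8 and 157 CPM, a ratio of 1.66 (1.17 to 2.37), and 1 alternative put it within the step. H2-Aa had a ratio of 1.44 (1.02 to 2.04), the invariant chain Cd74 1.33 (1.10 to 1.62) and H2-Eb1 1.30 (0.911 to 1.85). Cd86, a co-stimulatory ligand, had a ratio of 0.926 and H2-DMa 0.913. The 10 class I pathway genes had a median ratio of 1.05, with 0 past the step, beside 7.80% of all 5721 genes in either direction. In the other barcodes H2-Ab1 had a ratio of 1.42 and Cd74 1.58.

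Fc receptor genes had a median ratio of 1.19 over 7 genes, with 1 higher past the step, beside 3.41% of all genes, and 0 lower. That gene was Syk, the kinase below these receptors, at 98.1 and 163 CPM, a ratio of 1.66 (1.18 to 2.36), which 1 alternative put within the step. Fcgr4 was at 615 and 872 CPM, a ratio of 1.42 (1.23 to 1.63), and Fcgr1 at 398 and 542 CPM, a ratio of 1.36 (1.14 to 1.63). Itgam, the CD11b chain of complement receptor 3, was at 1662 and 2118 CPM, a ratio of 1.27 (1.17 to 1.39). In the other barcodes the ratios were 1.81 for Fcgr4, 1.74 for Fcgr1 and 1.47 for Itgam.

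Of 26 interferon response genes, 2 were higher past the step and 0 lower, 7.69% in either direction against 7.80% of all 5721 genes, so the count was near the background. The median ratio was 1.18. Isg15, a ubiquitin-like protein, was at 76.5 and 161 CPM, a ratio of 2.11 (1.45 to 3.09). Its highest Treg_Penk_KO member held 19 UMIs, and among members that passed no other marker rule the ratio turned to 0.624. Ifi211 had a ratio of 1.81 (1.13 to 2.94). Ifit3 at 1.24, Irf7 at 1.23, Bst2 at 1.05 and Rsad2 at 0.746 lay within the step.

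Inflammatory mediators were sparse. Il6, Il1a and Il23a had no UMI in any member, Il1b had 1 in each library and Nos2, the inducible nitric oxide synthase, 1 and 0. Tnf had 23 and 12 UMIs and Il10, the anti-inflammatory cytokine, 25 and 20, a ratio of 0.934 (0.492 to 1.75). Il1rn, the interleukin-1 receptor antagonist, had 5 and 17 UMIs, too few for the size rule. Of 13 Toll-like receptor genes and adaptors 0 lay past the step, beside 7.80% of all 5721 genes in either direction. Their median ratio was 0.979, and Tlr7, for instance, was at 226 and 214 CPM.

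Immediate early genes, which respond to stimuli within minutes and also to tissue handling, had ratios above 1 for 1 of 10 genes with enough UMIs, beside 2827 of all 5721 genes. Of the 10, 0 were higher and 2 (20.0%) lower past the step, beside 4.39% lower of all genes, with a median ratio of 0.819. Dusp1, a phosphatase of the MAP kinases, was at 98.1 and 44.7 CPM, a ratio of 0.455 (0.268 to 0.749), and 0.799 among members that passed no other marker rule. Egr1 was at 94.8 and 56.3 CPM, a ratio of 0.594 (0.366 to 0.945), and turned to 1.09 with members weighted equally. Fos lay the other way with a ratio of 1.29 (0.755 to 2.21). In the other barcodes the ratio was 0.826 for Dusp1 and 0.612 for Egr1. Among members that passed no other marker rule the list's median log2 ratio was 0.01.

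The 11 glucocorticoid-induced genes had 0 past the step in either direction, beside 7.80% of all 5721 genes. Their median ratio was 0.837, against 0.955 for the same genes in the other barcodes. Fkbp5, which encodes a chaperone of the glucocorticoid receptor, was at 269 and 188 CPM, a ratio of 0.699 (0.538 to 0.905), where the other barcodes had 1.03. Zbtb16 had 0.703 (0.496 to 0.990), Ddit4 0.730 (0.527 to 1.01) and Tsc22d3, the GILZ gene, 0.879 (0.714 to 1.08). Sgk1 at 1.09 and Cdkn1a at 1.07 lay above 1. Fkbp5 had a ratio of 0.848 (0.759 to 0.947) in Schwann cell and 0.884 (0.660 to 1.18) in endothelial barcodes. In fibroblast and satellite glia barcodes its ratio was 1.13 and 1.18. Over the alternatives the median log2 ratio of the list ran from -0.358 to -0.0428.

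Genes of lysosomal digestion and of uptake had median ratios near 1. Of 20 lysosomal genes 0 lay past the step in either direction, beside 7.80% of all 5721 genes. Their median ratio was 1.01, with Ctsb, a cathepsin, at 2933 and 3140 CPM and Grn, progranulin, at 2628 and 2594. Of 11 genes for the uptake of dead cells 0 lay past it, with a median of 0.975. In lists this small a count of 0 is not far from the share of all genes. Mertk, an uptake receptor, had a ratio of 0.808 (0.603 to 1.08). Apoe, the lipid carrier, was at 7529 and 6528 CPM, a ratio of 0.867 (0.829 to 0.907). Of 12 lipid-associated genes 2 (16.7%) were higher past the step, beside 3.41% of all genes. Abcg1, a cholesterol exporter, had a ratio of 1.75 (1.13 to 2.75) and lay past it under every alternative. Lgals3, at 225 and 377 CPM, had a ratio of 1.68 (1.34 to 2.11), and 2 alternatives put it within the step. It also had a UMI in 12.3% and 12.1% of Schwann cell barcodes, against 14.6% and 17.3% of members. Its ratio in fibroblast barcodes was 2.32 (1.69 to 3.23) and in endothelial barcodes 0.438 (0.298 to 0.632). Schwann cell and satellite glia barcodes had 1.10 and 0.838.

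Among complement genes beyond C1q, C3 was the 1 of 10 past the step. It was at 79.8 and 38.9 CPM, a ratio of 0.487 (0.274 to 0.836), and turned to 1.248 among members that passed no other marker rule. Of 10 iron and heme genes, Blvra, a biliverdin reductase, was higher past the step at 26 and 37 UMIs, with a ratio of 1.66 (0.980 to 2.86). Of 4 growth factor genes, Vegfb was higher with a ratio of 1.56 (0.990 to 2.47). Of 16 cytokine receptor genes, Il13ra1, a chain of the receptor for interleukins 4 and 13, was lower with 0.601 (0.320 to 1.09). The intervals of Blvra, Vegfb and Il13ra1 include 1, and single genes past the step in lists of this size stand beside 3.41% higher and 4.39% lower of all genes.

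Of 4 cell cycle genes with enough UMIs, 2 were higher past the step, beside 3.41% of all genes. Mki67, a marker of cycling cells, was at 63.2 and 132 CPM, a ratio of 2.09 (1.39 to 3.20), from 21 and 25 members, and 1.54 to 3.46 over the alternatives. Mcm5, of the replication helicase, had a ratio of 1.51 (0.857 to 2.69). Top2a and Cdk1, other cycling markers with too few UMIs for the size rule, had 15 and 10 and 11 and 9 UMIs, ratios of 0.779 (0.313 to 1.85) and 0.956 (0.350 to 2.54).

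The genes with the most extreme ratios were few in UMIs, and some rested on single members. S100a8 and S100a9, the calprotectin genes of neutrophils, had 3 and 185 and 1 and 95 UMIs. Ltf, lactoferrin, had 0 and 50 UMIs, which makes it at least 19.5 times as high at a floor of 3 counts over the control members. A single Treg_Penk_KO member with 1624 UMIs and 15 rule UMIs held 182 of the S100a8, 95 of the S100a9, 49 of the Ltf, 52 of the 72 Lcn2 and 23 of the 38 Chil3 UMIs. Without members that held at least 10 UMIs of such genes, the ratio was 0.784 for Lcn2 and 0.735 for Chil3. Plac8, at 14 and 58 UMIs, had 45 of them in another single member.

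The other 4 of the 10 genes at the upper end were Ccl4, Lipg, Fut11 and Cpne8, each spread over many members. Lipg, endothelial lipase, was at 59.9 and 188 CPM, a ratio of 3.15 (2.13 to 4.75), in 23 and 44 members, and lay between 3.11 and 6.13 under the alternatives. Fut11, a fucosyltransferase, was at 36.6 and 89.4 CPM, a ratio of 2.44 (1.44 to 4.26), in 21 and 43 members. Cpne8, a calcium-binding copine, had a ratio of 2.34 (1.31 to 4.29), but its level in members was only 0.469 times that in the other barcodes of the control and 0.931 times in the other library. Among members that passed no other marker rule the Cpne8 ratio was 1.12, within the step.

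At the lower end Hbb-bs, a beta globin, came first with 53 and 4 UMIs, of which 37 control UMIs lay in 1 member. Rxra, the retinoid X receptor alpha, was at 79.8 and 27.2 CPM, a ratio of 0.341 (0.173 to 0.628), in 47 and 14 members. Rab9, of late endosome traffic, had a ratio of 0.406 (0.215 to 0.731), Tcf7l2, a Wnt pathway factor, and Jag1, a Notch ligand, both 0.430 (0.215 to 0.812). Pip4p2, a phosphoinositide phosphatase, had 0.451 (0.262 to 0.749), Slco1a4, an organic anion transporter, 0.438 (0.225 to 0.810), and Dus3l, a tRNA-modifying enzyme, 0.359 (0.192 to 0.639). Rxra, Rab9, Tcf7l2 and Pip4p2 lay past the step under every alternative. Among members that passed no other marker rule Dus3l had a ratio of 0.873, within the step, and 1 alternative each put Jag1 (0.731) and Slco1a4 (0.679) within it. In the other barcodes Rxra had a ratio of 0.919 and Tcf7l2 0.930. Slco1a4 was at 1749 and 1506 CPM in endothelial barcodes, a ratio of 0.861 (0.770 to 0.963). The part of vessel RNA in its level in members was not tested.

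Dcn, the fibroblast proteoglycan decorin, was at 1268 and 814 CPM, a ratio of 0.642 (0.569 to 0.724). Without members that passed a fibroblast, endothelial, mural or red blood cell rule, which left 491 and 396, the ratio turned to 1.17. Cldn5, Flt1 and Pecam1, all of vessels, were lower past the step with ratios of 0.567, 0.609 and 0.584, and the same removal turned Cldn5 to 1.22 and Flt1 to 1.72. Saa3 under that removal had a ratio of 0.262 and Ccl12 1.92.

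Genes of 2 macrophage types were looked for in the members. Genes known from macrophages at borders and vessels, such as Cd163, Folr2, F13a1, Cbr2 and Lyve1, had a UMI in 57.4% (53.1 to 61.6) of control and 54.4% (49.6 to 59.1) of Treg_Penk_KO members, and in 41.9% and 40.6% after thinning to 500 UMIs. Genes known from microglia, P2ry12, Tmem119, Gpr34 and Siglech, had a UMI in 20.7% and 19.4%. The border-type list had 13 genes and the microglia-type list 4, so these shares do not compare how common the types are. In Schwann cell barcodes, which were deeper, these shares were 6.59% and 7.45% for the border-type and 3.85% and 4.35% for the microglia-type genes. P2ry12, at 118 and 117 CPM in members, was also at 82.5 and 102 CPM in satellite glia barcodes, and Tmem119, at 63.2 and 60.2 CPM in members, at 32.7 and 72.7 CPM in fibroblast barcodes. UMIs of both lists were found together in 77 and 56 members and of neither in 196 and 170, so at this depth the lists do not part the members into separate kinds. Cd163 itself was at 527 and 447 CPM, a ratio of 0.847 (0.712 to 1.01), but in 30.4% (26.6 to 34.5) of control and 22.4% (18.5 to 26.6) of Treg_Penk_KO members, and in 1.54% and 0.943% of Schwann cell barcodes. After thinning its shares were 21.6% (18.2 to 25.3) and 15.2% (11.96 to 18.94).

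Members with a border-type UMI alone, 234 and 180, were compared with those with a microglia-type UMI alone, 35 and 28. The border-type list was the longer, so these numbers do not compare how common the sides are. Lgals3 was at 301 against 25.6 CPM in the control and at 537 against 70.2 in the Treg_Penk_KO library. The chemotactic receptor C5ar1 was at 297 against 76.9 and at 293 against 70.2 CPM, Fn1 at 199 against 51.3 and at 528 against 35.1, and Ecm1, a matrix protein, at 278 against 51.3 and at 180 against 35.1. The values on the microglia-type side rest on 1 to 3 UMIs for these genes, and 1 Treg_Penk_KO member held 41 Fn1 UMIs. Lgals3, C5ar1, Fn1, Ecm1 and the stromal genes Dcn and Igfbp5 were picked for a high ratio on the border-type side in both libraries. Their agreement between the libraries was thus set by that choice. Dcn was at 1390 against 333 and at 1100 against 281 CPM, and Igfbp5 at 105 against 25.6 and at 135 against 35.1. Igfbp5 rests on 1 UMI on the microglia-type side of each library, and its intervals include 1. The part of stromal RNA in the other differences was not tested. Saa3 was also the higher on the border-type side, at 1581 against 692 and at 320 against 105 CPM. The last of these values rests on 3 UMIs, and the interval of its ratio, 0.999 to 15.1, includes 1. Fcrls, a receptor-like gene of microglia, lay the other way, at 939 against 1307 and at 943 against 2036 CPM.

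A class II UMI (H2-Aa, H2-Ab1, H2-Eb1 or Cd74) was found in 34.1% (30.1 to 38.3) of control and 35.9% (31.4 to 40.7) of Treg_Penk_KO members, and in 21.8% and 24.0% after thinning, beside 4.55% and 5.30% of Schwann cell barcodes. Members with class II were deeper, at a median of 970 and 971.5 UMIs against 801 and 795.5 without. Ccl5 was at 178 with against 63.8 CPM without class II in the control and at 213 against 62.7 in the Treg_Penk_KO library. Ccl4 was at 115 against 23.9 and at 236 against 92.3 CPM, so it was higher in the Treg_Penk_KO library on both sides of that split. Ccr2 was at 120 against 77.2 and at 227 against 95.6 CPM. Pf4 was lower with class II, at 71.0 against 197 and at 104 against 247 CPM. Ccl5, Ccl4 and Pf4 were picked for a ratio in the same direction in both libraries, so that agreement was set by the choice. Mrc1, a gene of the member rule and so a description only, was at 759 against 960 and at 652 against 920 CPM.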

How the data were processed

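The deposited tables hold raw UMI counts. Reads were mapped to GRCm39, per the labels' protocol, which gives Cell Ranger 7.0 where the matrix headers give 8.0.1. The kit reads genes through probe pairs on fixed cells, and the series text speaks of nuclei where the sample labels speak of cells. The number of mice behind each pool is unknown here. The control library held 259136217 UMIs (median 2481 per barcode) and the Treg_Penk_KO library 156441497 (median 2243).

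Member UMIs were summed per library and scaled to 1000000. Levels have exact Poisson, ratios exact conditional binomial and shares Clopper-Pearson intervals, all for counting error only, and UMIs of 1 cell were treated as independent. Ratios against 0 used a floor of 3 counts, and thinning used seed 1. Named genes were the 10 highest and 10 lowest ratios, the 20 most enriched, the genes of the lists by level or past the step, 8 per split and side where counts allowed, Penk, Foxp3 and the opioid receptor genes. Reference barcodes passed exactly 1 marker rule among non-neuronal classes. The members and lists were chosen with earlier results of these data known. Ratio and interval code was tested on simulated data. The scripts used scipy 1.17.1, numpy 2.4.6, pandas 2.3.3, matplotlib 3.10.9 and Python 3.11.15. Of 428 list genes, 9 were not analysed here. Some gene-level results are not reported here.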

Additional observations from a re-analysis of the deposited data

Results flagged for a closer look

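Lcn2, Rab9 and Slco1a4 lay on opposite sides of 1 in members and in the other barcodes of the same libraries, and this difference was not tested. Lcn2, a siderophore-binding protein of neutrophils and inflamed tissue, had a ratio of Treg_Penk_KO to control of 2.80 in members and 0.800 in the other barcodes. In 1 Treg_Penk_KO member it had 52 of its 72 UMIs. Rab9 had a ratio of 0.406 in members, from 46 and 16 UMIs, and 1.03 in the other barcodes. Slco1a4 had a ratio of 0.438 in members, from 40 and 15 UMIs, and 1.18 in the other barcodes. In endothelial barcodes it was at 1749 and 1506 CPM.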

How the results depend on the processing

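No paired analysis was possible because each group is 1 library, and leaving out a replicate was not possible for the same reason. The share of members in the control and Treg_Penk_KO libraries was 4.14% and 4.48% at a lower threshold (3 UMIs and 30 per 10000). It was 2.40% and 2.49% at a higher one (8 and 100) and 3.92% and 4.15% among droplets of 1 library. With every barcode of at least 500 UMIs thinned to that depth it was 3.08% and 3.03%. There 4 rule UMIs were asked for, a stricter density than 50 per 10000, with no upper limit of UMIs. The counts of 195 higher and 251 lower genes were 92 and 74 among members that passed no other marker rule, 521 and 630 after thinning, 650 and 771 at 20 UMIs per gene, 51 and 43 at 100 UMIs, 50 and 26 among genes at least 2 times as high in members, 816 and 886 at a step of 25% in place of 50%, and 30 and 26 at a step of 2. With members weighted equally 294 were higher and 357 lower. Dividing by the median ratio gave 199 and 247.

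Of 45 named genes past the step, 13 stayed past it in the same direction under every alternative: Abcg1, Ccl12, Ccl4, Ccl9, Ccr2, Fut11, Lipg, Mki67, Pip4p2, Rab9, Rxra, Saa3 and Tcf7l2. Ratios crossed 1 for others. Among members that passed no other marker rule they were 1.248 for C3, 1.23 for Dcn, 0.624 for Isg15, 0.761 for Lcn2, 0.998 for Mcm5 and 1.248 for Rgs5. Without stromal, vessel and red blood cell rule members, an alternative chosen after seeing the data, they were 1.22 for Cldn5, 1.17 for Dcn, 1.72 for Flt1 and 1.21 for Rgs5. Without members with 10 UMIs of neutrophil genes, also added later, they were 0.735 for Chil3, 0.784 for Lcn2 and 0.392 for S100a8. At the lower threshold they were 1.00 for Cldn5 and 1.00 for Flt1, and the median log2 ratio of endothelial markers was 0.0243. At the higher threshold they were 0.345 for Lcn2 and 1.02 for Pecam1. Thinning gave 1.36 for Cldn5 and 1.48 for Egr1, equal weights 1.09 for Egr1, and droplets of 1 library 0.942 for Cldn19. The cause was not tested. Of 3055 values of 279 named genes under the alternatives, 2865 stayed within the counting interval.

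With a median near 850 UMIs a member shows few genes, so an absent UMI does not show absence of the RNA. Intervals leave out the spread between animals, preparations and cells, and pooling, genotype and library cannot be told apart.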
